A study of Homo sapiens with 6 samples.

Results

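The RAS genes and the feedback genes of the ERK pathway were followed across 4 cell lines, CHLA 02, 04, 05 and 06, of atypical teratoid rhabdoid tumor (AT/RT), an embryonal tumor of the central nervous system of young children that typically loses the chromatin remodeling subunit SMARCB1. The 8 genes were NRAS, HRAS, NF1, BRAF, DUSP4, DUSP6, SPRY2 and SPRY4, taken by gene symbol, and each matched 1 gene identifier among the 36532 genes in the files. Their total RNA was sequenced in 6 libraries, of which CHLA 02 and CHLA 05 had 1 each, while CHLA 04 and CHLA 06 were each run as a pair of technical replicates. All cells were untreated established lines, and all were grown with EGF at 20 ng/mL, basic FGF at 20 ng/mL and 2% B-27 supplement, so that both growth factors were present in every group. The study also followed NRAS in cells with reduced HML-2, a family of endogenous retroviruses, and RNA of such cells was not analysed here.

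RAS proteins are small GTPases that switch on when they bind GTP and relay signals from growth factor receptors. Active RAS recruits RAF kinases such as BRAF, which start the phosphorylation cascade through MEK to ERK, and NF1 (neurofibromin) switches RAS off by speeding up GTP hydrolysis. ERK in turn induces genes that restrain the pathway, among them the phosphatases DUSP4 and DUSP6, which remove phosphate from MAP kinases, and the Sprouty proteins SPRY2 and SPRY4, which dampen receptor signaling upstream of ERK. The RNA levels of these feedback genes are widely read as an output of the pathway, but RNA levels do not measure GTP loading or phosphorylation.

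Gene levels were given in TPM, a transcript abundance that corrects for transcript length and for the depth of a library. The files held whole reads once TPM was multiplied by transcript length, and 10265899 to 20520229 reads were recovered per library. The shallowest library was replicate 1 of CHLA 04. Each cell line was represented by 1 biological sample, so that no test between lines was possible, and a difference between lines has no replicate check. The error given for CHLA 04 and CHLA 06 is the SD of 2 technical replicates, and the 95% Wilson intervals given for single libraries cover counting error only. A gene was called different when the line means differed at least 2-fold on the log2(TPM + 1) scale, and for pairs of lines also when no library of one line overlapped the other. On this scale, the technical replicates differed at least 2-fold for 6.16% of the 14827 genes with a mean of at least 1 TPM over lines in CHLA 04, and for 1.57% in CHLA 06.

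The lines were checked against marker genes. VIM (vimentin) was at 4629 to 19464 TPM in all 6 libraries, SMARCB1 RNA was at 13.5 to 26.2 TPM in the same libraries, and SOX2, a neural stem cell factor, was at 4.03 TPM or less. PAX6, a neuroectodermal factor, was at 15.8 to 36.9 TPM in CHLA 02, CHLA 04 and CHLA 05 and at 0.604 and 0.937 TPM in CHLA 06. GFAP, a glial filament, likewise set CHLA 06 apart, with 0.0419 and 0.0379 TPM against 23.9 to 151 TPM in the other lines. NES (nestin) was at 5.21 to 27.6 TPM. TUBB3, a neuronal tubulin, was listed under separate gene identifiers. The more abundant entry was at 205 to 455 TPM and was highest in CHLA 06, with 311 and 455 TPM. The other entry was at 3.55 to 30.4 TPM and was highest in CHLA 02. The study, citing earlier work, describes the lines as lacking SMARCB1 expression. The RNA values given here do not measure SMARCB1 protein. Of 8 markers of other cell types, 4 had a mean of at least 1 TPM over lines. PTPRC of leukocytes and PECAM1 and CDH5 of endothelium, which were not among these 4, were at 0.224 TPM or less in every library. The summed level of the 8 markers was 451 TPM in CHLA 02, 4.03 and 2.09 TPM in the replicates of CHLA 04, 12.3 TPM in CHLA 05, and 691 and 564 TPM in the replicates of CHLA 06. In CHLA 02 and CHLA 06 most of this sum was COL1A1, a collagen chain of mesenchymal cells, and KRT8, a keratin of simple epithelia. According to the study, AT/RT cells themselves express epithelial and mesenchymal markers. CD68 of macrophages was at 6.36 TPM in CHLA 02 and 6.34 and 22.6 TPM in CHLA 06, against 0.236 to 0.897 TPM in the other lines. EPCAM of epithelia was at 2.47 to 2.60 TPM in CHLA 02 and CHLA 06 and at 0.215 TPM or less elsewhere. The level of this list was thus higher in CHLA 02 and CHLA 06 than in the other lines, and its part in the results below was not tested. In bulk RNA, fewer cells expressing a gene and less RNA per cell cannot be told apart.

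NRAS and HRAS encode nearly the same GTPase and differ mainly at the C-terminal end, where the CAAX motif receives the lipid that anchors the protein to membranes. The last coding bases are shown because the pair differs more there than in the rest of the coding sequence. They are given 5′ to 3′ in the sense of the gene (GRCh38, minus strand in both, from the GENCODE release 44 transcripts), with the last 12 bases, the 4 CAAX codons, in capitals. NRAS was read at chr1:114708538-114708609 and HRAS at chr11:532639-532710, both in coding exons.
NRAS: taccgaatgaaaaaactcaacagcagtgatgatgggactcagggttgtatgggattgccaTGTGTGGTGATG
HRAS: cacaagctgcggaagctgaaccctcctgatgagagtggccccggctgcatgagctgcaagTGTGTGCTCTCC
In these 72 bases 48.6% of positions were identical, against 76.6% in the other 495 coding bases. The longest run that the pair of transcripts shared was 14 bases, while the reads were 125 bases long. NRAS was also measured by PCR in the study with the primer CAGAGGCAGTGGAGCTTGA, which is at chr1:114716659-114716677 in exon 1 of NRAS, 18 bases before the start codon, and which has no match in the HRAS transcript.

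NRAS (ENSG00000213281, chr1:114704469-114716894, minus strand) was highly expressed in all lines. It was at 92.5 TPM in CHLA 02, 50.55 and 100.4 TPM in the replicates of CHLA 04, 100.2 TPM in CHLA 05, and 121 and 119.5 TPM in the replicates of CHLA 06. CHLA 06 was above every other library, whereas CHLA 02 and CHLA 05 lay within the range of the CHLA 04 replicates. The mean was 75.5 ± 35.3 TPM in CHLA 04 (SD, n = 2 technical replicates) and 120.4 ± 1.19 TPM in CHLA 06 (SD, n = 2 technical replicates), a difference of 0.67 on the log2(TPM + 1) scale that was not called. The replicates of CHLA 04 differed from each other by 0.98 on that scale, more than the lines did. Without replicate 2 of CHLA 04 the difference between the highest and the lowest line was 1.24, and NRAS would have been called, whereas without replicate 1 CHLA 06 was 0.26 above CHLA 04, and CHLA 02 was the lowest line. In the files NRAS had 1 transcript, so its level does not depend on how reads were split among isoforms.

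HRAS (ENSG00000174775, chr11:532242-537287, minus strand) was highest in CHLA 04, where NRAS was lowest through replicate 1. Its level was 29.5 TPM in CHLA 02, 82 and 78.6 TPM in the replicates of CHLA 04, 72.4 TPM in CHLA 05, and 34.7 and 39.2 TPM in the replicates of CHLA 06. The libraries fell into a higher pair of lines, CHLA 04 and CHLA 05, and a lower pair, CHLA 06 and CHLA 02, with no overlap between the pairs. HRAS was 2.72-fold higher in CHLA 04 than in CHLA 02 (log2 difference 1.41). The gene is short, and these levels rested on 167 to 481 reads, so that the Wilson interval in CHLA 02 ran from 25.4 to 34.4 TPM and the interval in CHLA 05 from 65.8 to 79.6 TPM. CHLA 04 and CHLA 05 were not separated beyond counting error, since the interval of CHLA 05 included replicate 2 of CHLA 04.

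NF1 (ENSG00000196712, chr17:31094927-31382116, plus strand) had the smallest spread among the 8 genes. It was at 128 TPM in CHLA 02, 115 and 128 TPM in the replicates of CHLA 04, 96.7 TPM in CHLA 05, and 118 TPM in both replicates of CHLA 06. The lowest line, CHLA 05, was below every other library, and the CHLA 06 replicates lay between those of CHLA 04. The highest and lowest lines differed 1.33-fold, or by 0.40 on the log2(TPM + 1) scale, and a difference that small or smaller was seen in 11.7% of the 14827 genes. NF1 has many pseudogenes that could share reads with it, and all 12 listed in the files were at 0 in every library. How shared reads were assigned is not given in the sources used here, so these values do not show that NF1 received none.

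BRAF (ENSG00000157764, chr7:140719327-140924764, minus strand) was at 42.7 TPM in CHLA 02, 25.1 and 28.7 TPM in the replicates of CHLA 04, 40.4 TPM in CHLA 05, and 62.8 and 57.1 TPM in the replicates of CHLA 06. CHLA 06 was higher and CHLA 04 lower than all other libraries. The difference between these lines was 2.23-fold (log2 difference 1.13), and it was called. CHLA 02 and CHLA 05 differed by less than the counting error, with Wilson intervals of 40.4 to 45.1 and 38.1 to 42.8 TPM. NDUFB2, a gene of the respiratory chain, overlaps BRAF on the other strand and was at 108 to 148 TPM. The kit keeps the strand, but whether the counting used it is not given in the sources used here, so reads in the shared stretch are uncertain.

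**Figure D1:**
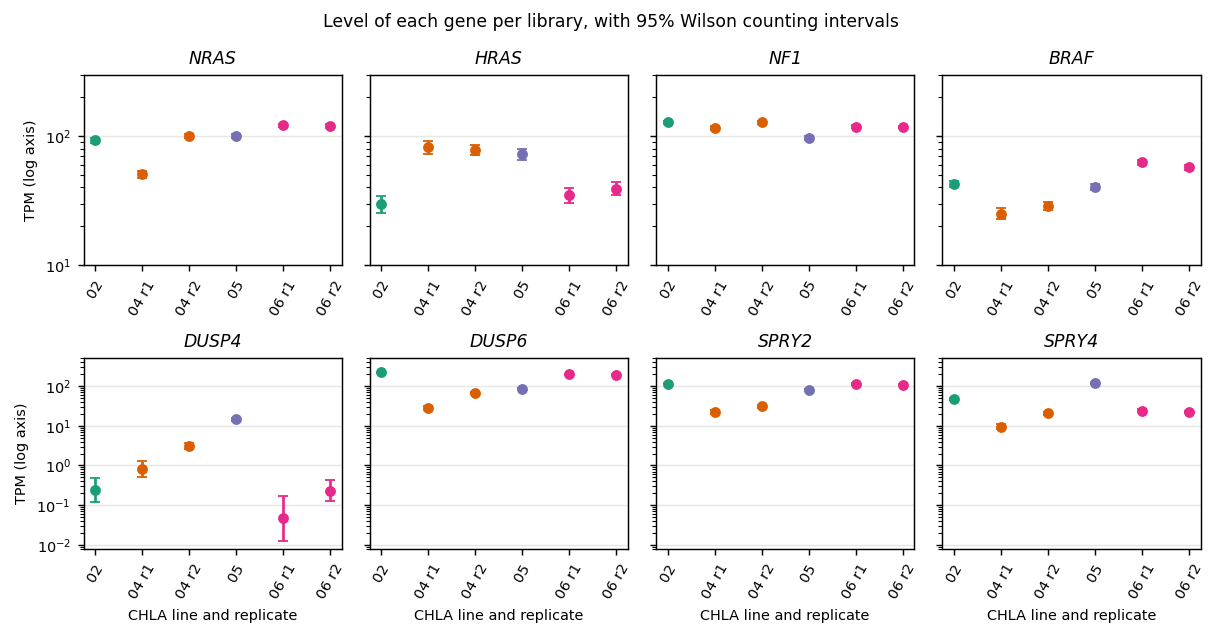
TPM of the 8 genes (log axis, with its own scale in each row) in the 6 libraries, colored by cell line, where r1 and r2 are technical replicates and bars are 95% Wilson intervals for counting error. The top row spans 25.1 to 128 TPM, HRAS is high in CHLA 04 and CHLA 05, and in the bottom row DUSP6 and SPRY2 are lowest in CHLA 04 while SPRY4 and DUSP4 are highest in CHLA 05.

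The feedback genes had wider ranges over lines than NRAS, HRAS, NF1 and BRAF, on line means. DUSP6 (ENSG00000139318, chr12:89347232-89353271, minus strand), the cytoplasmic phosphatase of ERK, was at 222 TPM in CHLA 02, 28.2 and 65.6 TPM in the replicates of CHLA 04, 86 TPM in CHLA 05, and 196 and 192 TPM in the replicates of CHLA 06. The lines CHLA 02 and CHLA 06 were above CHLA 05, and both CHLA 04 libraries were the lowest. The highest line was 4.74-fold above the lowest (log2 difference 2.22). The replicates of CHLA 04 differed by 1.19 on the log2(TPM + 1) scale, and without replicate 2 of that line the range was 2.94, and without replicate 1 it was 1.74, which is under 4-fold.

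SPRY2 (ENSG00000136158, chr13:80335976-80340951, minus strand) placed the lines in the same order as DUSP6. It was at 115 TPM in CHLA 02, 22.4 and 30.5 TPM in the replicates of CHLA 04, 79.7 TPM in CHLA 05, and 110.5 and 109 TPM in the replicates of CHLA 06. CHLA 02 and both replicates of CHLA 06 had overlapping Wilson intervals, and CHLA 04 was lower than every other library. The line means differed 4.36-fold (log2 difference 2.08), with 26.4 ± 5.76 TPM in CHLA 04 and 109.8 ± 1.05 TPM in CHLA 06 (SD, n = 2 technical replicates each). Without replicate 1 of CHLA 04 the range was 1.89, under 4-fold.

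SPRY4 (ENSG00000187678, chr5:142310427-142326455, minus strand), a close relative of SPRY2, was instead highest in CHLA 05. Its level was 47 TPM in CHLA 02, 9.49 and 20.7 TPM in the replicates of CHLA 04, 119 TPM in CHLA 05, and 24.1 and 22.3 TPM in the replicates of CHLA 06. CHLA 05 stood above all other libraries, CHLA 02 came next, and the upper replicate of CHLA 04 was just below CHLA 06, with a Wilson interval that overlapped that of replicate 2 of CHLA 06 and not that of replicate 1. The difference between CHLA 05 and CHLA 04 was 7.89-fold (log2 difference 2.90), and the replicates of CHLA 04 differed by 1.05 on the log2 scale. The range over lines was 3.52 without replicate 2 of CHLA 04 and 2.47 without replicate 1.

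DUSP4 (ENSG00000120875, chr8:29333064-29350668, minus strand), the nuclear phosphatase of the MAP kinases, was the least expressed of the 8 genes and passed the minimum of 1 TPM through CHLA 05. It was at 14.7 TPM in CHLA 05 (514 reads), 0.806 and 3.13 TPM in the pair from CHLA 04 (18 and 117 reads), 0.240 TPM in CHLA 02 (8 reads), and 0.0467 and 0.230 TPM in the replicates of CHLA 06 (2 and 10 reads). CHLA 05 was above all other libraries, and CHLA 02 and CHLA 06 were near the limit of detection. The Wilson interval ran from 13.4 to 15.99 TPM in CHLA 05, from 0.121 to 0.473 TPM in CHLA 02 and from 0.125 to 0.423 TPM in replicate 2 of CHLA 06, so that the latter lines were not separated. On the log2(TPM + 1) scale CHLA 05 was 3.78 above CHLA 06 and 2.40 above CHLA 04.

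Of the 8 genes, 6 differed at least 2-fold between the highest and the lowest line, compared with 49.7% of all tested genes. At least 4-fold differences were found for 4 of the 8 genes, compared with 22.4% of all tested genes, and these were the 4 feedback genes. Without replicate 1 of CHLA 04 the count was 2, DUSP4 and SPRY4. DUSP4 passed the minimum of 1 TPM through CHLA 05, so it had to differ between lines. The median range over lines was 2.56 (log2 scale) for the feedback genes, 2.22 for the 3 other than DUSP4, and 0.90 for NRAS, HRAS, NF1 and BRAF, beside 0.99 over all tested genes. Among the 8 genes 5 were lowest in CHLA 04, namely NRAS, BRAF, DUSP6, SPRY2 and SPRY4, whereas CHLA 04 was the lowest line for 25.7% of all tested genes. NRAS was lowest there through replicate 1. Replicate 1 of CHLA 04 was lower than replicate 2 in 7 of the 8 genes, HRAS being the exception, and the replicates of this line differed at least 2-fold in DUSP4, DUSP6 and SPRY4. In CHLA 06 no member differed 2-fold between replicates on the log2(TPM + 1) scale. DUSP4, at 0.0467 and 0.230 TPM there, was near the floor of that scale.

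**Figure D2:**
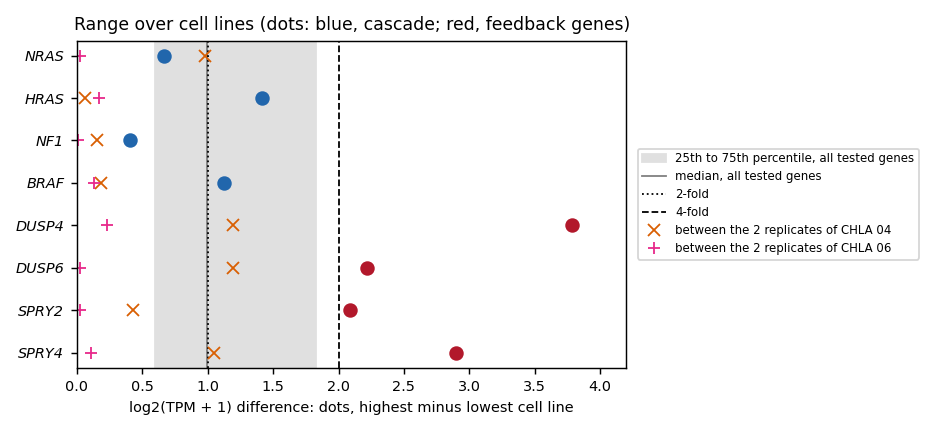
Difference between the highest and the lowest cell line for each gene on the log2(TPM + 1) scale (dots, blue for NRAS, HRAS, NF1 and BRAF, red for the feedback genes), with the difference between technical replicates of CHLA 04 (x) and CHLA 06 (+). The shaded band is the 25th to 75th percentile over all tested genes, from 0.60 to 1.83, and the feedback genes lie above it at 2.08 to 3.78. For NRAS the x lies to the right of the dot.

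Between pairs of lines, the call required a 2-fold difference without overlap of libraries. CHLA 06 and CHLA 02 differed in 0 of the 8 genes, while 13% of all tested genes were called in this pair. SPRY4 came nearest, 2.02-fold lower in CHLA 06 by mean TPM (log2 difference -0.99), and it was called without replicate 1 of CHLA 06. CHLA 04 differed from CHLA 02 in 5 genes, with a background of 22%. HRAS and DUSP4 were higher and DUSP6, SPRY2 and SPRY4 lower in CHLA 04, and the call of DUSP4 was lost without replicate 2 of CHLA 04. CHLA 06 differed from CHLA 04 in 5 genes, with a background of 35.8%. BRAF, DUSP6 and SPRY2 were higher and HRAS and DUSP4 lower in CHLA 06, and the call of HRAS, a 2.17-fold difference, was lost when libraries were scaled by median-of-ratios or quantiles and by the most abundant transcript. The median-of-ratios scaling moved whole libraries by -0.14 to 0.15 on the log2 scale, with CHLA 04 and CHLA 06 at the extremes. The call of DUSP4 in this pair was also lost without replicate 2 of CHLA 04, and NRAS and SPRY4 were then called.

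CHLA 05 differed from CHLA 02 in 4 genes, with a background of 24.4%. HRAS, DUSP4 and SPRY4 were higher and DUSP6 was lower in CHLA 05. CHLA 05 differed from CHLA 04 in 3 genes, DUSP4, SPRY2 and SPRY4, all higher in CHLA 05, with a background of 20.9%, and DUSP6 was called as well without replicate 2 of CHLA 04. CHLA 06 differed from CHLA 05 in 3 genes, with a background of 30.8%. DUSP6 was higher and DUSP4 and SPRY4 were lower in CHLA 06, and HRAS was also called without replicate 2 of CHLA 06. NF1 was called in no pair of lines.

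Ratios within a library do not depend on the scaling of that library, and the pairs given here were picked after their values were seen. NRAS exceeded HRAS 3.13-fold in CHLA 02 and 3.49-fold and 3.05-fold in CHLA 06, but only 1.38-fold in CHLA 05 and 1.28-fold in replicate 2 of CHLA 04, and in replicate 1 of CHLA 04 the ratio was 0.617. The share of the pair held by HRAS was thus lowest in CHLA 02 and CHLA 06. DUSP6 exceeded SPRY4 4.74-fold in CHLA 02, 2.97-fold and 3.17-fold in CHLA 04, and 8.13-fold and 8.62-fold in CHLA 06, and only in CHLA 05 was SPRY4 the more abundant transcript, with a ratio of 0.722. The ratio of DUSP6 to SPRY4 in CHLA 04 was nearly the same in both replicates although the levels of both genes differed at least 2-fold between them. The ratio of DUSP6 to SPRY2 stayed between 1.08 and 2.15 in all 6 libraries.

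**Figure D3:**
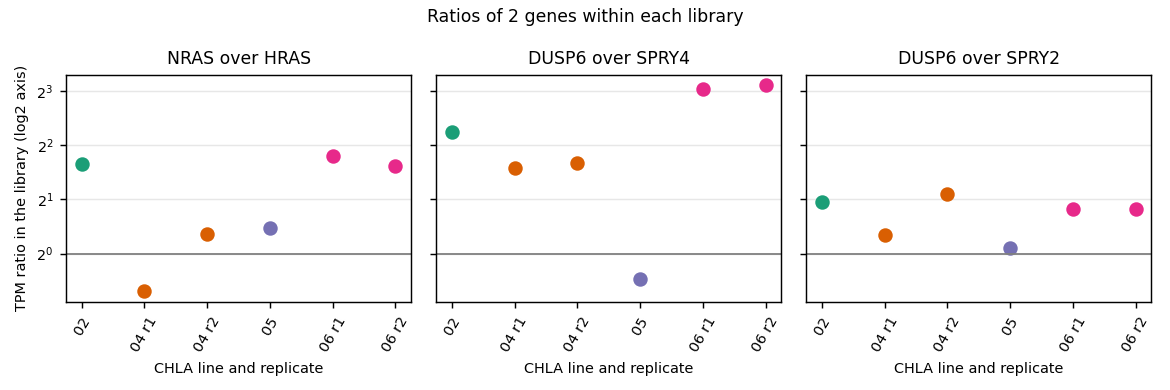
TPM of one gene divided by that of another in the same library (log2 axis, line at 1), by library and colored by cell line. NRAS over HRAS is above 3 in CHLA 02 and CHLA 06 and below 1.4 elsewhere, DUSP6 over SPRY4 is below 1 only in CHLA 05, and DUSP6 over SPRY2 ranges from 1.08 to 2.15.

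Other genes that control ERK signaling were taken from lists, and the counts below leave out the 8 genes themselves. They stand beside 49.7% of all tested genes past 2-fold and 22.4% past 4-fold. Of the MAP kinase phosphatases 6 of 8 had a mean of at least 1 TPM, and 4 of these differed at least 2-fold between lines. DUSP8 and DUSP10, which act mainly on the stress kinases, were lowest in CHLA 06, where DUSP6 was high. DUSP10 was at 8.51 TPM in CHLA 02, 17.5 and 8.66 TPM in CHLA 04, 11.7 TPM in CHLA 05, and 1.04 and 0.509 TPM in CHLA 06. DUSP5, a nuclear ERK phosphatase, followed the low level of DUSP6 in CHLA 04 with 1.21 and 3.91 TPM, against 6.87 to 11.3 TPM in the other lines. DUSP1 and DUSP16 differed less than 2-fold.

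In the Sprouty and SPRED family all 5 other genes were expressed, and 4 of them differed at least 2-fold. SPRY1 showed the widest range, with 285 TPM in CHLA 02, 8.68 and 10.1 TPM in CHLA 04, 181 TPM in CHLA 05, and 385 and 328 TPM in CHLA 06. Like SPRY2, SPRY1 was lowest in CHLA 04, where it was 37.9-fold below CHLA 06. SPRY3 resembled SPRY4, with 7.53 TPM in CHLA 05 and at most 1.40 TPM elsewhere. SPRED1, which brings neurofibromin to the membrane, was highest in CHLA 04, where SPRY2 was lowest. It was at 70.4 TPM in CHLA 02, 124 and 143 TPM in CHLA 04, 63.8 TPM in CHLA 05, and 32 and 32.6 TPM in CHLA 06.

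Of 11 other target genes of ERK, 10 differed at least 2-fold and 8 at least 4-fold between lines. CCND1 (cyclin D1), not past 2-fold, was past it under both scalings and without replicate 1 of CHLA 04. EGR1, past 4-fold, was lowest in CHLA 04 through replicate 2, at 11.2 TPM against 61.3 TPM in replicate 1. The 4-fold count of this list was not repeated without a replicate. The PEA3 transcription factors ETV1, ETV4 and ETV5, which FGF signaling induces, were highest in CHLA 05, as SPRY4 and DUSP4 were. ETV1 was at 7.95 TPM in CHLA 02, 17.2 and 71.8 TPM in CHLA 04, 163 TPM in CHLA 05, and 2.98 and 3.41 TPM in CHLA 06. ETV5 was at 205 TPM in CHLA 05 and at 34.6 to 126 TPM in the other libraries. FOSL1, a subunit of AP-1, was highest in CHLA 02 at 58.4 TPM and lowest in CHLA 04 at 2.34 and 8.80 TPM, with CHLA 06 and CHLA 05 between them in the order of DUSP6. EPHA2 was highest in CHLA 05 at 89.8 TPM and lowest in CHLA 04 at 12.7 and 13.2 TPM. IER3 was lowest in CHLA 05 at 0.597 TPM, against 9.65 to 19.6 TPM elsewhere. PHLDA1 was highest in CHLA 02 at 43.1 TPM and lowest in CHLA 06 at 9.32 and 9.82 TPM. EPHA4 was highest in CHLA 04 at 13.4 and 8.77 TPM and lowest in CHLA 06 at 0.465 and 2.08 TPM.

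The replicates of CHLA 04 also differed in ERK target genes beyond the feedback genes. The immediate early genes FOS and EGR1 were higher in replicate 1, with 128 against 5.46 TPM for FOS and 61.3 against 11.2 TPM for EGR1. ETV1, ETV4 and ETV5 were lower in replicate 1, and ETV4 was at 10.7 against 55.7 TPM. These libraries are named technical replicates in the labels, and the levels of these genes in CHLA 04 cannot be given more closely than this spread. The spread was not the same for all ERK targets, since EPHA2 was at 12.7 and 13.2 TPM, whereas FOSL1 was at 2.34 and 8.80 TPM.

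**Figure D4:**
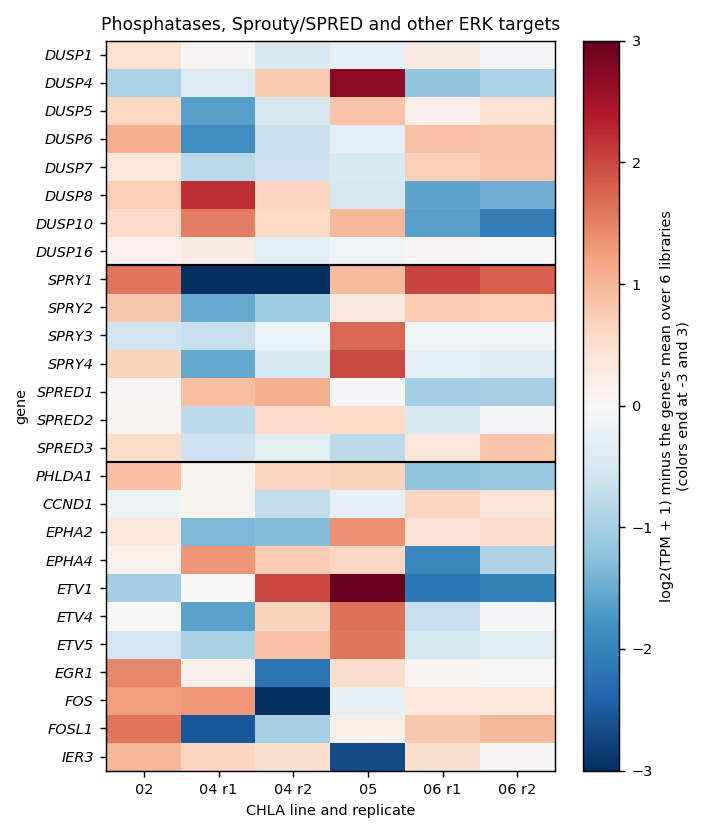
Level of each MAP kinase phosphatase, Sprouty or SPRED gene and other ERK target (rows, separated by lines) in the 6 libraries (columns), as log2(TPM + 1) minus the mean of the gene over libraries. DUSP6, SPRY1, SPRY2 and FOSL1 are low in CHLA 04, while SPRY4, SPRY3, DUSP4, ETV1, ETV4 and ETV5 are highest in CHLA 05.

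The genes that work between receptor and ERK were counted in the same way, beside the same 49.7% of all tested genes. Of 9 RAS-related GTPases 2 differed at least 2-fold. RRAS was at 49.7 TPM in CHLA 02, 21.2 and 21.5 TPM in CHLA 04, 5.87 TPM in CHLA 05, and 60.3 and 50.2 TPM in CHLA 06. RRAS2 was lowest in CHLA 04 at 5.08 and 10.9 TPM and highest in CHLA 06 at 52.1 and 47.1 TPM. Of the exchange factors and adaptors, 10 of 12 were expressed and 3 differed 2-fold. The calcium-regulated exchange factor RASGRF2 was present in CHLA 02 at 45.7 TPM and in CHLA 06 at 75.5 and 94.6 TPM, but was at 0.237 to 0.264 TPM in the other lines. RASGRP1 was highest in CHLA 05 at 5.92 TPM and lowest in CHLA 06 at 0.175 and 0.251 TPM. The third, RASGRP2, was at 2.94 TPM in CHLA 02 and at 0.304 to 1.02 TPM in the other libraries. It passed the minimum of 1 TPM through CHLA 02, so its difference between lines was partly built in by the filter. With a pseudocount of 2 it was no longer past 2-fold. SOS1, SOS2, GRB2 and PTPN11, which couple receptors to RAS, all differed less than 2-fold.

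Of the GTPase-activating proteins other than NF1, 6 of 8 were expressed and 2 differed 2-fold, RASA2 and RASA3, both lowest in CHLA 04 and highest in CHLA 06. RASA3 was at 3.74 and 8.01 TPM in CHLA 04 and at 20.3 and 20.0 TPM in CHLA 06. Among the kinases and scaffolds of the cascade, MAP2K1 (MEK1) was at 127 TPM in CHLA 02, 20.8 and 27.6 TPM in CHLA 04, 36.8 TPM in CHLA 05, and 58.9 and 94.1 TPM in CHLA 06. The scaffold KSR1 was highest in CHLA 05 at 107 TPM and lowest in CHLA 06 at 23.8 and 25.4 TPM. MAPK3, which encodes an ERK kinase, differed less than 2-fold, as did ARAF. All 8 genes for lipid modification of RAS, such as FNTA and FNTB of the farnesyltransferase, differed less than 2-fold on line means, though GOLGA7 passed it without replicate 1 of CHLA 04.

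Of the 5 receptors for the growth factors in the medium 4 differed at least 2-fold, and the median range of the 5 was 4.43 on the log2(TPM + 1) scale. EGFR was at 199 TPM in CHLA 02, 10.1 and 13.8 TPM in CHLA 04, 209 TPM in CHLA 05, and 299 and 260 TPM in CHLA 06, and so was lowest in the line with the lowest SPRY2 and DUSP6. FGFR1 was at 493 TPM in CHLA 02, 2054 and 1720 TPM in CHLA 04, 759 TPM in CHLA 05 and 64.1 TPM in both libraries of CHLA 06. FGFR2 was at 339 TPM in CHLA 02, 828 and 574 TPM in CHLA 04 and 5.43 TPM in CHLA 05. In CHLA 06 its level was 459 and 350 TPM. FGFR4 was at 8.60 and 3.89 TPM in CHLA 04 and at 2.36 to 5.71 TPM in the other lines. FGFR1, FGFR2 and FGFR4 thus had their highest line mean in CHLA 04, where EGFR, SPRY2 and DUSP6 were lowest. The summed level of the 5 receptors was 2904 and 2316 TPM in CHLA 04, against 682 to 1038 TPM in the other lines. FGFR3 was highest in CHLA 05 at 37.4 TPM and at most 4.85 TPM in the other lines, an order that placed the same line on top as for SPRY4 and DUSP4.

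The isoforms of each gene were compared as shares of its TPM. For HRAS, 57.8% to 77.2% of TPM was on transcripts annotated as protein-coding, and the main one (ENST00000311189) held 30.0% in CHLA 02 and 59.2% in replicate 2 of CHLA 04. By the most abundant transcript alone, the highest and lowest lines of HRAS differed by 2.02 on the log2 scale, while its call between CHLA 04 and CHLA 06 was lost. A transcript of HRAS with a retained intron (ENST00000479482) held 19.8% in CHLA 02 and 15.5% in replicate 1 of CHLA 04 but 1.14% in replicate 2. Of NF1, 43.1% to 51.1% of TPM was on coding transcripts, and the long coding transcript ENST00000358273 of 58 exons held 24.0% to 28.1%. A transcript of NF1 annotated for nonsense-mediated decay (ENST00000581790) held 1.39% in CHLA 02 and 13.4% in replicate 2 of CHLA 06, but it also differed between the replicates of CHLA 04, with 3.28% and 10.9%.

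For BRAF, 80.2% to 96.3% of TPM was on coding transcripts. The main pair of transcripts, ENST00000288602 of 18 exons and ENST00000496384 of 10 exons, held 37.0% to 41.1% and 34.6% to 43.5%. DUSP6 and SPRY2 each had a main transcript with at least 53.5% (ENST00000279488) and 77.2% (ENST00000377104) of TPM in every library, and that of SPRY4 (ENST00000344120) held 66.6% to 87.1%. The lowest coding share of BRAF, DUSP6 and SPRY4 was in replicate 1 of CHLA 04, the shallowest library. Transcript shares are estimates of the authors' software, and no errors were given with them.

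**Figure D5:**
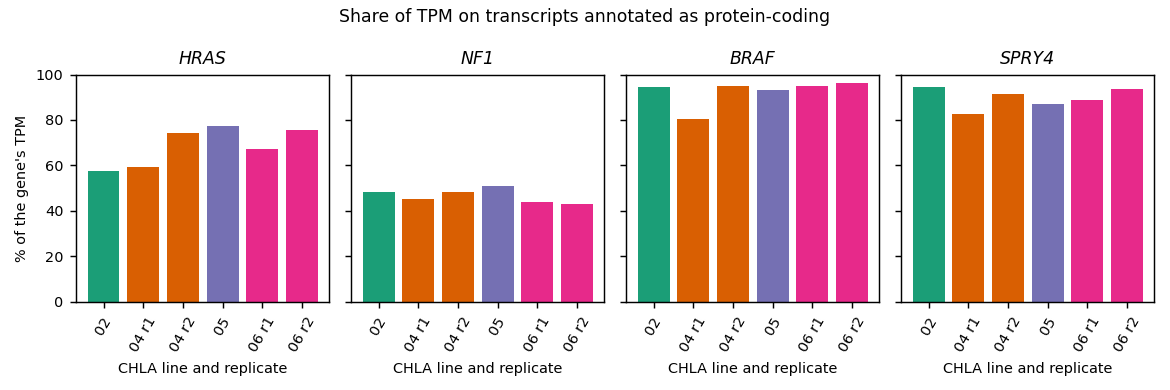
Share of the TPM of HRAS, NF1, BRAF and SPRY4 (percent, bars from 0) on transcripts annotated as protein-coding in GENCODE release 44, by library and colored by cell line. NF1 is between 43.1% and 51.1% in all libraries, HRAS ranges from 57.8% to 77.2%, and BRAF drops to 80.2% in replicate 1 of CHLA 04.

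For each gene, the genes with the nearest profile were found among 10704 genes with a mean of at least 10 TPM over lines, by the Euclidean distance of centered log2(TPM + 1) values over 6 libraries, where 0 is an identical profile. The nearest to NRAS was VKORC1L1 at a distance of 0.15, to HRAS PARD6A at 0.19, to NF1 TRA2A at 0.11, and to BRAF OCIAD1 at 0.14. SPRY2 was nearest to ECE1 at 0.28, and DUSP6 to YES1 at 0.55. DUSP4 and SPRY4 had less similar neighbors, NHSL1 at 0.75 and C3orf58 at 0.75. Among the 8 genes themselves, the closest pair was NRAS and BRAF at 0.69, followed by DUSP6 and SPRY2 at 0.85. For DUSP6 28 of the genes searched were nearer than SPRY2, and for SPRY2 83 were nearer than DUSP6. For NRAS 779 genes were nearer than BRAF. The distance was not scaled by the range of a gene, so these counts cannot be compared between pairs. The points share libraries, and the replicates of CHLA 04 weigh on each distance.

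Since the files also give LTR elements of endogenous retroviruses, the elements inside the 8 genes were counted. These values are TPM scaled over LTR elements alone and cannot be set beside gene TPM. NF1 contained 31 elements, of which 12 were above 0 in some library and 7 in all 6, and BRAF contained 21, of which 5 and 2 were. The other 6 genes contained 0. Over all 720177 elements, 16.3% were above 0 in some library and 2.62% in all 6. All 9 elements above 0 in every library lay on the strand of the gene and overlapped no exon. In NF1 6 of the 7 formed a run at chr17:31183587-31189019 (GRCh38), with MLT2A1 at both ends and HERVL-int between them, at 18.9 to 66.7 LTR TPM. In BRAF the highest was an LTR55 at chr7:140811376-140811805, whose LTR TPM was 32.3 for CHLA 02, 15.5 and 23 for the CHLA 04 replicates, 30.7 for CHLA 05, and 50.03 and 33.4 for the CHLA 06 replicates. It was lowest in CHLA 04, as BRAF was. No HML-2 element (HERVK-int or LTR5_Hs) lay inside any of the 8 genes. The nearest was 165 kb from BRAF, an LTR5_Hs of at most 33.2 LTR TPM. The nearest to NRAS was 645 kb away and was at 0 in all libraries.

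Promoter windows of 300 bases, 250 before and 50 after the start, were taken from RefSeq (GRCh38). DUSP4 was left out of this search, which covered the other genes. Letter strings of binding motifs were searched on both strands, 10 strings in all, and those shown were chosen after the matches were seen. The ETS motif CCGGAAG, which ERK-regulated ETS factors can bind, was found once each in NRAS, HRAS and NF1 and in none of the other 4 windows, and it is present in 10.3% of all 35116 windows. The GC box GGGCGG was found 3 times in NRAS, 5 times in HRAS, 2 times in SPRY2 and 1 time in SPRY4 (45.0% of all windows hold it). The E-box CACGTG was found once in NRAS (7.26% of windows), the CRE motif TGACGTCA once in NF1 (1.85%) and the AP-1 motif TGACTCA in none (4.95%). Of the other strings, which include shorter forms of the ETS motif, CGGAAG was present in DUSP6 as well (19.5% of windows), CCGGAA in SPRY2 as well (17.2%), GGAAG (71.9%) in all windows but that of SPRY4, and GGAA (95.5%) in all of them, while a serum response element of 10 letters was in none of them. The windows of HRAS (chr11:535527-535826, minus strand), the richest in GC boxes, and SPRY2 (chr13:80341077-80341376, minus strand), which shared its order of lines with DUSP6, are given 5′ to 3′ with matches to the 5 named motifs in capitals.
HRAS: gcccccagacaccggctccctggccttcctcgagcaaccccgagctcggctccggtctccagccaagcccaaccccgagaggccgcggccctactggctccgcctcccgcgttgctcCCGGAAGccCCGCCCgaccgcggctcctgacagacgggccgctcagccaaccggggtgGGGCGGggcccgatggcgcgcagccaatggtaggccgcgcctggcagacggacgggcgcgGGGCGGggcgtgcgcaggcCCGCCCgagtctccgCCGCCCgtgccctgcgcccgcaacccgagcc
SPRY2: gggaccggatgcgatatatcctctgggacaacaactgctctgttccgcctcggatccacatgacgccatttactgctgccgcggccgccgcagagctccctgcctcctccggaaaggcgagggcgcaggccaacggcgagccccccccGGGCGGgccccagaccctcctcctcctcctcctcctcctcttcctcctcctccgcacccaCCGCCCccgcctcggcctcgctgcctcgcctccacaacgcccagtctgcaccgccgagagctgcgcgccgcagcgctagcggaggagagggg
The starts used lie 42 bases (HRAS) and 175 bases (SPRY2) from the 5′ end of the most abundant transcript in the files. For DUSP6 and SPRY4 the distance was 770 and 754 bases, and for BRAF the most abundant transcript began 141111 bases away. The string counts therefore describe these windows, and no binding was measured.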

How the data were processed

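Libraries were made from total RNA with a stranded kit and sequenced as pairs of 125 bases, with CASAVA 1.8.2 named in the submitters' processing notes. The authors checked and trimmed the reads with FastQC and Trimmomatic, mapped them to GRCh38 and Ensembl release 82 genes with default settings of the CLCbio Genomics Workbench, and deposited TPM for 173113 transcripts, and separately TPM for 720177 RepeatMasker LTR elements. Other versions are not given in the sources used here.

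TPM was summed by gene identifier, and technical replicates were averaged by cell line. Reads were recovered as whole multiples of TPM times length (at least 99.6% of values above 0 within 0.05 of a whole number). The recovery and the calls were tested on simulated data. Differences are on log2(TPM + 1), over 14827 genes with a mean over lines of at least 1 TPM. No test between lines was made, since each had 1 biological sample. Groups came from the sample titles in the labels. Transcript types came from GENCODE release 44, which matched 52 of 54 transcripts. Python 3.11.15, pandas 2.3.3, NumPy 2.4.6 and SciPy 1.17.1 were used. Candidates for naming were the 8 genes and listed genes with the highest or lowest level or line means at least 4-fold apart. They also included the 2 nearest profiles per gene, transcripts with at least 10% of a gene, and the highest LTR elements. Not all candidates were named, and of the nearest profiles only the first is given. Other listed genes were named after their values were seen. The members and lists were chosen with earlier results of these data known. Alternatives were other pseudocounts, 2 scalings, the maximum of replicates, the most abundant transcript, no filter and leaving out each technical replicate. Some genes of the kinase list are not reported here.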

Additional observations from a re-analysis of the deposited data

How the results depend on the processing

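No paired analysis was possible because the replicate numbers mark technical replicates of 1 sample per cell line and no test between lines was made. The number of genes at least 2-fold apart between lines was 6 to 7 under every alternative run. The number at least 4-fold apart, 4 as reported, was 2 with the maximum of replicates (DUSP4 and SPRY4). By the most abundant transcript it was 5, with HRAS added to the feedback genes. It ranged from 2 to 4 when a replicate was left out, and these alternatives for it were chosen after seeing the data. For CHLA 02 against CHLA 06 the count of 0 became 1 with a pseudocount of 0.1 (SPRY4) and 2 by the most abundant transcript (SPRY4 and HRAS), and ranged from 0 to 1 when a technical replicate was left out. The count for RAS lipid modification, 0 as reported, became 1 with the maximum of replicates (GOLGA7) and 1 by the most abundant transcript (FNTA), and ranged from 0 to 1 when a replicate was left out. The count for RAS-related GTPases ranged from 2 to 4 when a replicate was left out. Of the other counts none moved by more than 1.5 times. None of the 8 genes reversed the direction between its highest and lowest line, and other directions were not checked. The range of DUSP4 was 3.78 as reported, 5.95 with a pseudocount of 0.1 and 2.96 with a pseudocount of 2, by the construction of the scale. With a pseudocount of 2, DUSP4 was no longer called between CHLA 04 and CHLA 02 or CHLA 06. Without the filter on low values, 22.5% rather than 49.7% of genes differed 2-fold between lines. Depth limits DUSP4 most, with 2 to 18 reads in 4 of the 6 libraries, and the spread between cultures of a line was not measured.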
